A study of Mus musculus with 55 samples.

Results

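The genes described here are 10 markers of the astrocytes of the cerebellum and of Bergmann glia, its radial astrocytes. They were chosen by gene symbol, as 10 of the 19938 genes measured, each read by 1 probe set, and all 10 passed the filter on low levels. Bergmann glia have cell bodies beside the Purkinje cells and send fibres through the molecular layer, where they enclose Purkinje synapses and take up glutamate. The other astrocytes of the cerebellum lie among granule neurons and in the white matter. Both kinds buffer potassium and water, feed neurons and turn on the filament gene Gfap after many kinds of injury.

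Cerebella of C57Bl/6 mice were taken at postnatal day (PND) 22, after daily subcutaneous injections from PND 4 to PND 21. The injections held chlorpyrifos oxon (CPO, as the title names it), the form of the insecticide chlorpyrifos that inhibits acetylcholinesterase, at 0.35 or 0.5 mg/kg/day, or dimethyl sulfoxide as vehicle. RNA of each sample was read on 1 of 55 Affymetrix arrays, and levels are given on a log2 scale. Mice labelled tgHuPON1R192 and tgHuPON1Q192 carry a human transgene for paraoxonase 1, an enzyme that hydrolyses CPO, with arginine (R192) or glutamine (Q192) at 1 position. Mice labelled Pon1-/- are called KO, and Pon1+/+ mice are wild type (WT). There were 4 vehicle, 5 low-dose and 5 high-dose arrays in each of R192 and Q192. Arrays labelled KO numbered 4, 5 and 3 in the same order, and WT arrays 6, 6 and 3. The promoter of the transgenes, the mouse Pon1 status of the transgenic lines and the sex of the animals are not given in the sources used here. The labels do not say that each array is a separate animal, and the p-values then cover nothing beyond the scatter among these arrays, whose number limits the precision. In whole tissue, fewer cells of a type and less RNA per cell cannot be told apart.

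The Pon1 probe set was as high in arrays labelled KO as in the transgenic lines, and higher than in every WT array. Pon1 lay between 9.78 and 10.39 in every array of R192, Q192 and KO, against 4.79 to 5.55 in WT arrays. The cause of these values was not tested, and an error of label cannot be told apart from other causes here. The KO arrays are therefore called arrays labelled KO, and each direction drawn from them carries this doubt. Xist, which females express, was high in KO vehicle replicate 4 and in WT 0.35 replicates 1 and 2. KO 0.35 replicate 5 shares its description number, whose meaning is not given, with 2 R192 arrays at 0.35. The calls between genotypes and for the difference of CPO effects are given with and without these arrays.

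The 10 genes did not vary as 1 group. After group means and the array date were removed, the deviations of Gdf10, a secreted factor typical of Bergmann glia, and of Slc1a3, the glutamate transporter GLAST, abundant in Bergmann glia, moved together over the 55 arrays. S100b, Fabp7 and Aqp4 formed a separate set and ran against Gdf10 and Slc1a3. The upstream stretches of Gdf10 and Slc1a3, and of Fabp7 and S100b, are shown because the genes of each pair moved together. They are the 250 bases before the annotated start (RefSeq, GRCm38.p6), read 5′ to 3′ on the strand of the gene. The windows are chr14:33923337-33923586 (plus strand) for Gdf10, chr15:8710808-8711057 (minus strand) for Slc1a3, chr10:57784673-57784922 (plus strand) for Fabp7 and chr10:76253586-76253835 (plus strand) for S100b. Capitals mark 2 motifs searched on both strands: TGGGAA, the core bound by the Notch partner RBPJ, and TTCNNNGAA, the site of STAT factors, which is its own reverse complement.
Gdf10: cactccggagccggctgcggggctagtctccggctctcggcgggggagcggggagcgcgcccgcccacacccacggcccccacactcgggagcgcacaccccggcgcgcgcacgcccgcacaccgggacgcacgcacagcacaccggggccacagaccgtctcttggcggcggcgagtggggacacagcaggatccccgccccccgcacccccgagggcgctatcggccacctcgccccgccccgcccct
Slc1a3: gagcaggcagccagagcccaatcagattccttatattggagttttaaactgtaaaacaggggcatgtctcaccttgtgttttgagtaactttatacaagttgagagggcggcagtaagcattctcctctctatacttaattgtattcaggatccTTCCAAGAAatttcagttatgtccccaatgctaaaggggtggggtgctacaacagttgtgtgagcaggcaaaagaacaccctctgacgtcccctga
Fabp7: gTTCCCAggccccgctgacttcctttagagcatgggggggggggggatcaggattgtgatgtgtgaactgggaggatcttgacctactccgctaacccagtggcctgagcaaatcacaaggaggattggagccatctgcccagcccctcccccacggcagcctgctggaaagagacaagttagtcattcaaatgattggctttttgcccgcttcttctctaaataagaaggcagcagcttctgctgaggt
S100b: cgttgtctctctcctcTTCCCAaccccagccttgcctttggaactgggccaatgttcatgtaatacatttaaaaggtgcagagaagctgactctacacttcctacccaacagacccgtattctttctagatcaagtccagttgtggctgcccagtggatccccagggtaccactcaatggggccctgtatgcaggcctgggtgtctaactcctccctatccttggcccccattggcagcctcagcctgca

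The Gdf10 window held neither motif and was 78.8% G and C, against 44.8% in the Slc1a3 window. The Slc1a3 window held 1 STAT motif, starting 96 bases before the start. Fabp7, which encodes the brain fatty acid binding protein of radial glia, and S100b, which encodes a calcium-binding protein of astrocytes, each held 1 RBPJ motif, 249 and 234 bases before the start. RefSeq windows were read for 9 of the 10 genes, and Aqp4 was left out of the search. The 9 genes had 12 windows in all, of which 6 held the RBPJ motif and 2 the STAT motif. Among all 32851 windows of this length, 21.59% held the RBPJ motif and 7.02% the STAT motif. A match is a description of these letters only.

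The plot of levels by array shows how each gene spread. Gfap, the intermediate filament of astrocytes (chromosome 11), had its lowest group mean in arrays labelled KO at 0.5, 9.91 ± 0.50 (SD, n = 3), and its highest in WT vehicle, 10.60 ± 0.27 (n = 6). Hopx, a homeodomain-only protein gene marking Bergmann glia (chromosome 5), ran between 8.58 ± 0.15 (n = 5) in arrays labelled KO at 0.35 and 8.95 ± 0.30 (n = 6) in WT at 0.35. Fabp7 (chromosome 10) ran between 10.53 ± 0.30 (n = 5) in R192 at 0.35 and 10.07 ± 0.42 (n = 4) in Q192 vehicle. For each of these 3 genes, no step between neighbouring group means was larger than the larger SD of the pair.

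**Figure D1:**
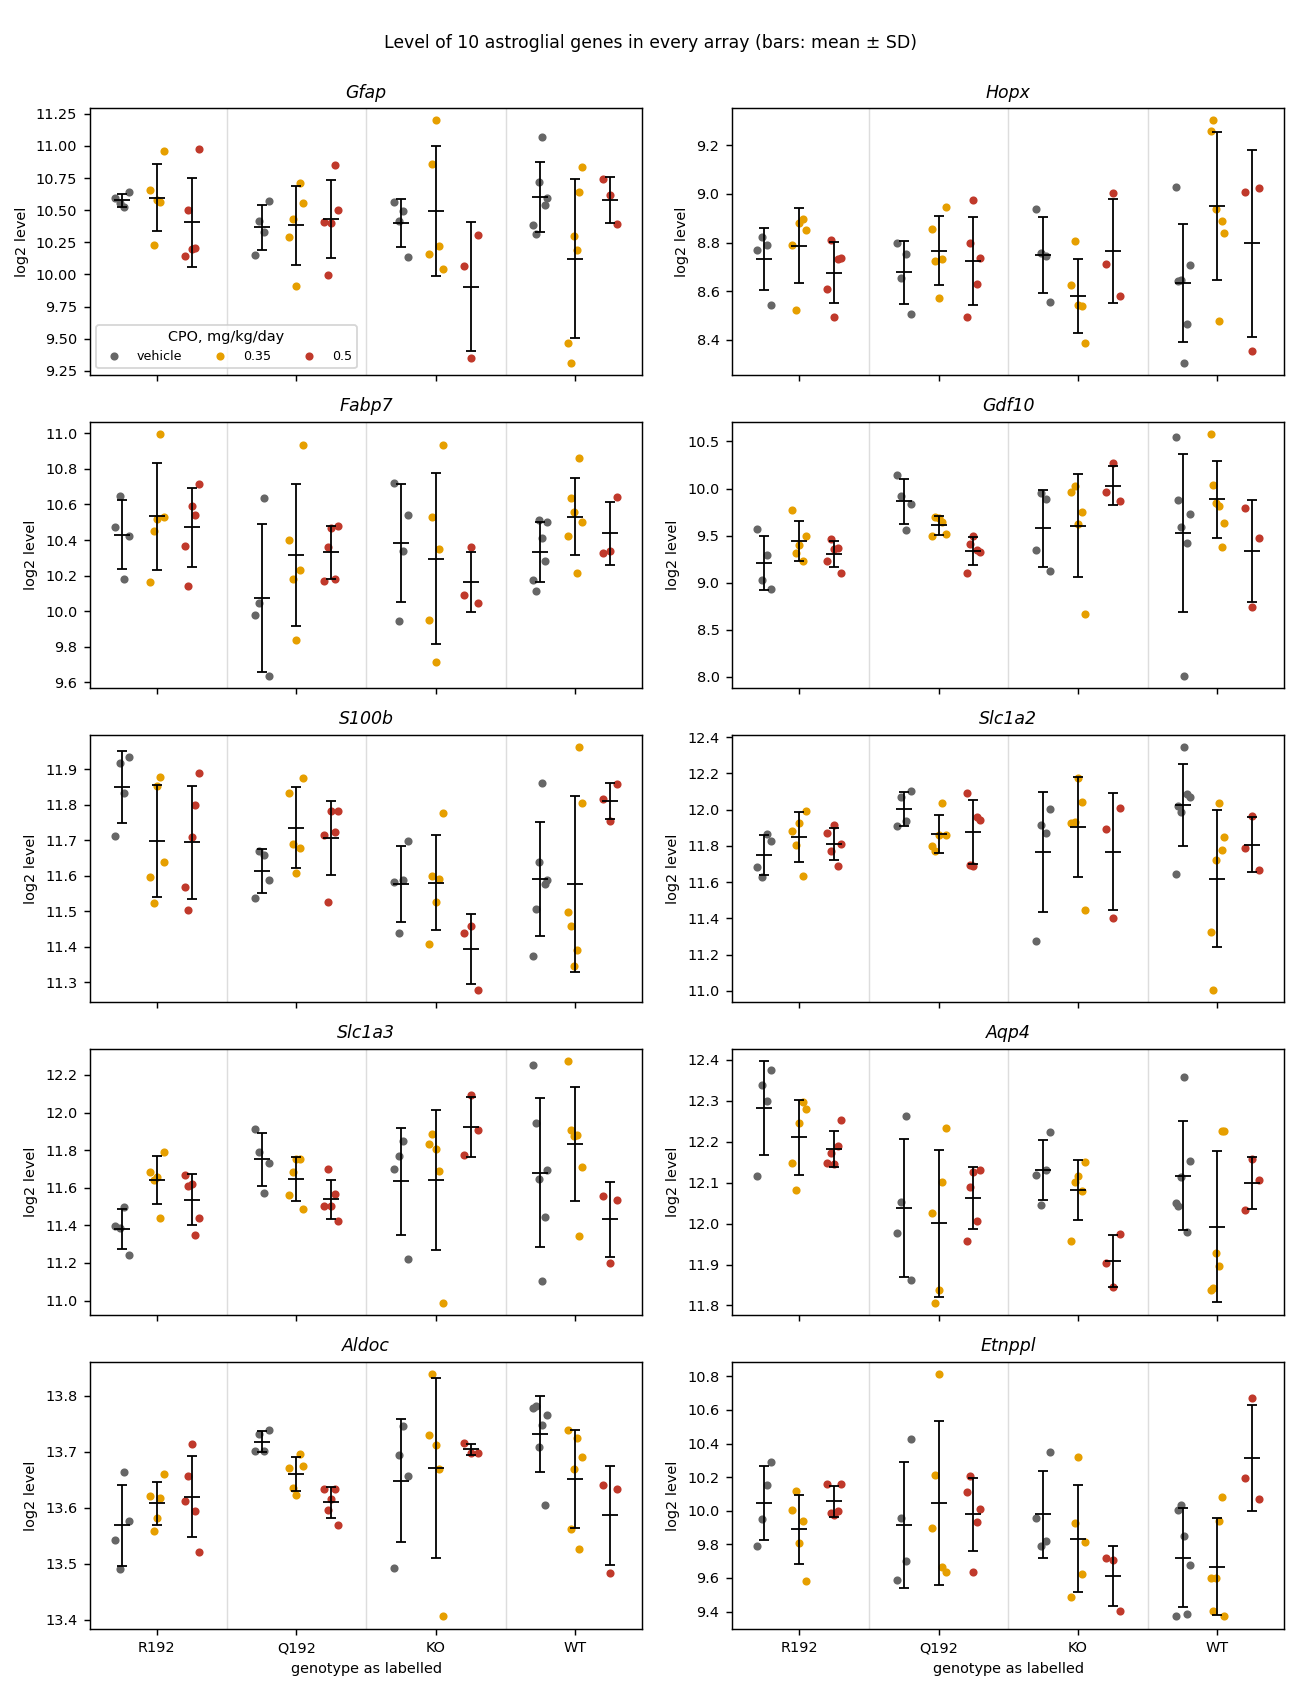
Log2 level of the 10 genes (y axis of each panel) in all 55 arrays, by genotype as labelled (x axis) and treatment (grey vehicle, orange 0.35 and red 0.5 mg/kg/day CPO). Each point is 1 array and bars give mean ± SD; Gdf10 spans 8.01 to 10.58, while Aldoc stays between 13.41 and 13.84.

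Gdf10 (chromosome 14) had the widest spread of the 10, between 10.03 ± 0.21 (n = 3) in arrays labelled KO at 0.5 and 9.21 ± 0.29 (n = 4) in R192 vehicle. Its lowest array was WT vehicle replicate 4 at 8.01. S100b (chromosome 10) ran between 11.85 ± 0.10 (n = 4) in R192 vehicle and 11.39 ± 0.10 (n = 3) in arrays labelled KO at 0.5. In both genes, 1 of the 11 steps between neighbouring group means exceeded the larger SD of that pair.

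Slc1a2, the glutamate transporter GLT-1 (chromosome 2), had its ends within 1 genotype, the lowest mean being 11.62 ± 0.38 in WT at 0.35 and the highest 12.03 ± 0.22 in WT vehicle (n = 6 each). Slc1a3 (chromosome 15) ran between 11.92 ± 0.16 (n = 3) in arrays labelled KO at 0.5 and 11.38 ± 0.11 (n = 4) in R192 vehicle. Aqp4, the water channel of astrocyte endfeet (chromosome 18), had the opposite ends, with 12.28 ± 0.12 (n = 4) in R192 vehicle and 11.91 ± 0.06 (n = 3) in arrays labelled KO at 0.5. In none of the 3 transporter and channel genes did neighbouring group means differ beyond the larger SD.

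Aldoc, the brain aldolase of astrocytes and of zebrin-positive Purkinje cells (chromosome 11), ran between 13.57 ± 0.07 (n = 4) in R192 vehicle and 13.73 ± 0.07 (n = 6) in WT vehicle. Etnppl, a phospho-lyase that breaks down phosphoethanolamine (chromosome 3), ran between 9.61 ± 0.18 (n = 3) in arrays labelled KO at 0.5 and 10.31 ± 0.32 (n = 3) in WT at 0.5. Their steps between neighbouring means were also within the larger SD. The residual SD, the spread left after group and array date, was 0.40 for Gdf10, 0.34 for Gfap, 0.29 for Etnppl and Fabp7, 0.23 for Slc1a3, 0.22 for Slc1a2 and 0.20 for Hopx. It was 0.13 for S100b, 0.11 for Aqp4 and 0.080 for Aldoc, against a median of 0.130 over the 14949 genes tested.

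The first question, from the title of the study, was whether CPO changed these genes. A gene was called at a limma adjusted p under 0.05 over all genes tested. No member was called in any of the 8 comparisons of a dose with vehicle within a genotype. In WT, 1 gene of all was called at 0.35 (0.00669%) and 155 genes at 0.5 (1.04%), and in the other 6 comparisons the share was 0%. Leaving out 1 array moved the WT counts. At 0.35 the count was 846 without WT vehicle replicate 1 and 1328 without WT 0.35 replicate 4. At 0.5 it was between 0 and 27 on leaving out any 1 of the 3 arrays at 0.5 or vehicle replicate 1, 2, 5 or 6. It was between 252 and 834 without WT 0.35 replicate 2 or 5, WT vehicle replicate 3 or 4, KO vehicle replicate 1 or KO 0.35 replicate 5. At an unadjusted p under 0.05 limma counted 0 to 3 members in each of the 8, and between 152 and 3276 of all genes. On the mean of the 4 genotypes the share called was 0% at each dose, with 0 members called. The joint test of any CPO difference called 0% of genes and 0 members, although 884 genes had an unadjusted p under 0.05.

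Etnppl had the smallest adjusted p among the members in WT at 0.5. It measured 10.20, 10.67 and 10.07 in the 3 WT arrays at 0.5, against a lowest of 9.37, a median of 9.76 and a highest of 10.03 in 6 vehicle arrays. All 3 arrays at 0.5 lay above every vehicle array, though the share of all genes that separate in this way was not counted. The log2 difference was +0.56 (SE 0.208, adjusted p = 0.110), which did not pass. S100b (+0.21, adjusted p = 0.196) and Aldoc (-0.15, adjusted p = 0.153) had an unadjusted p under 0.05 there and did not pass either. Among related genes Slc38a5, a glutamine transporter gene, was called in WT at 0.5 (-0.59, adjusted p = 0.0323).

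In WT at 0.35, Slc1a2 had a lowest level of 11.01, a median of 11.75 and a highest of 12.04, against 11.65, 12.04 and 12.34 in vehicle. Replicates 1 and 2, the arrays of high Xist, were the lowest of the 6. The difference was -0.40 (SE 0.127, adjusted p = 0.122), and -0.17 (adjusted p = 0.906) once the 3 arrays with high Xist were removed. It passed without WT 0.35 replicate 4 (-0.49, adjusted p = 0.0178) and without WT vehicle replicate 1 (-0.47, adjusted p = 0.0386). Gfap in the same arrays at 0.35 had a lowest of 9.31, a median of 10.24 and a highest of 10.83, against 10.32, 10.57 and 11.07 in vehicle.

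Replicates 1 and 2 again held the lowest Gfap values, and the highest Hopx values, 9.26 and 9.30. The Gfap difference was -0.48 (adjusted p = 0.163) and that of Hopx +0.30 (adjusted p = 0.157). With the high-Xist arrays removed they were -0.11 (adjusted p = 0.925) and +0.14 (adjusted p = 0.906). Hopx passed without WT 0.35 replicate 4 (+0.40, adjusted p = 0.0293).

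Other cell types moved with these values in WT at 0.35. All 25 oligodendrocyte markers were lower there (median log2 difference -0.40), as were all 21 microglia markers (median -0.27) and 30 of 31 brainstem and midbrain neuron markers (median -0.24), while granule neurons had 21 of 24 markers higher, with a median of +0.34. None of these genes was called. The mean level of the brainstem list was 6.90 and 7.01 in replicates 2 and 1 of WT at 0.35, below every other array. With that mean as a covariate, the difference was -0.12 for Slc1a2, -0.19 for Gfap and +0.09 for Hopx, each with an adjusted p of 0.985.

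In the transgenic lines and in arrays labelled KO the members' differences from vehicle lay between -0.18 and +0.31 in R192, between -0.54 and +0.27 in Q192 and between -0.45 and +0.44 in arrays labelled KO. The lower end in Q192 was Gdf10 at 0.5, with 9.10, 9.41, 9.49, 9.35 and 9.32 in the treated arrays against 10.14, 9.92, 9.56 and 9.84 in vehicle. All 5 treated arrays lay below all 4 vehicle arrays, and the difference of -0.54 (SE 0.269, adjusted p = 0.375) did not pass. All 24 granule neuron markers were lower in the same comparison (median -0.33, 0 called), and their mean level, 9.91 to 10.26 at 0.5 against 10.28 to 10.60 in vehicle, did not overlap either. Of 21 Purkinje cell markers 20 were lower (median -0.17). With the granule neuron mean as a covariate Gdf10 gave -0.05 (adjusted p = 0.891). Aqp4 in arrays labelled KO was 11.90, 11.85 and 11.97 at 0.5 against 12.12, 12.05, 12.13 and 12.22 in vehicle, again without overlap (-0.21, SE 0.0863, adjusted p = 0.387). Aldoc in Q192 also lay below every vehicle array at both doses. It reached 13.696 at most at 0.35 and 13.634 at 0.5, against 13.702 or more in vehicle. The share of all genes without overlap was not counted, so such separation is not shown to be particular to these genes. In R192 at 0.35, Slc1a3 (+0.31) and S100b (-0.18) had an unadjusted p under 0.05 and an adjusted p of 0.921 each. Q192 at 0.5 and arrays labelled KO at 0.5, like all of these groups, had 0% of genes called.

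**Figure D2:**
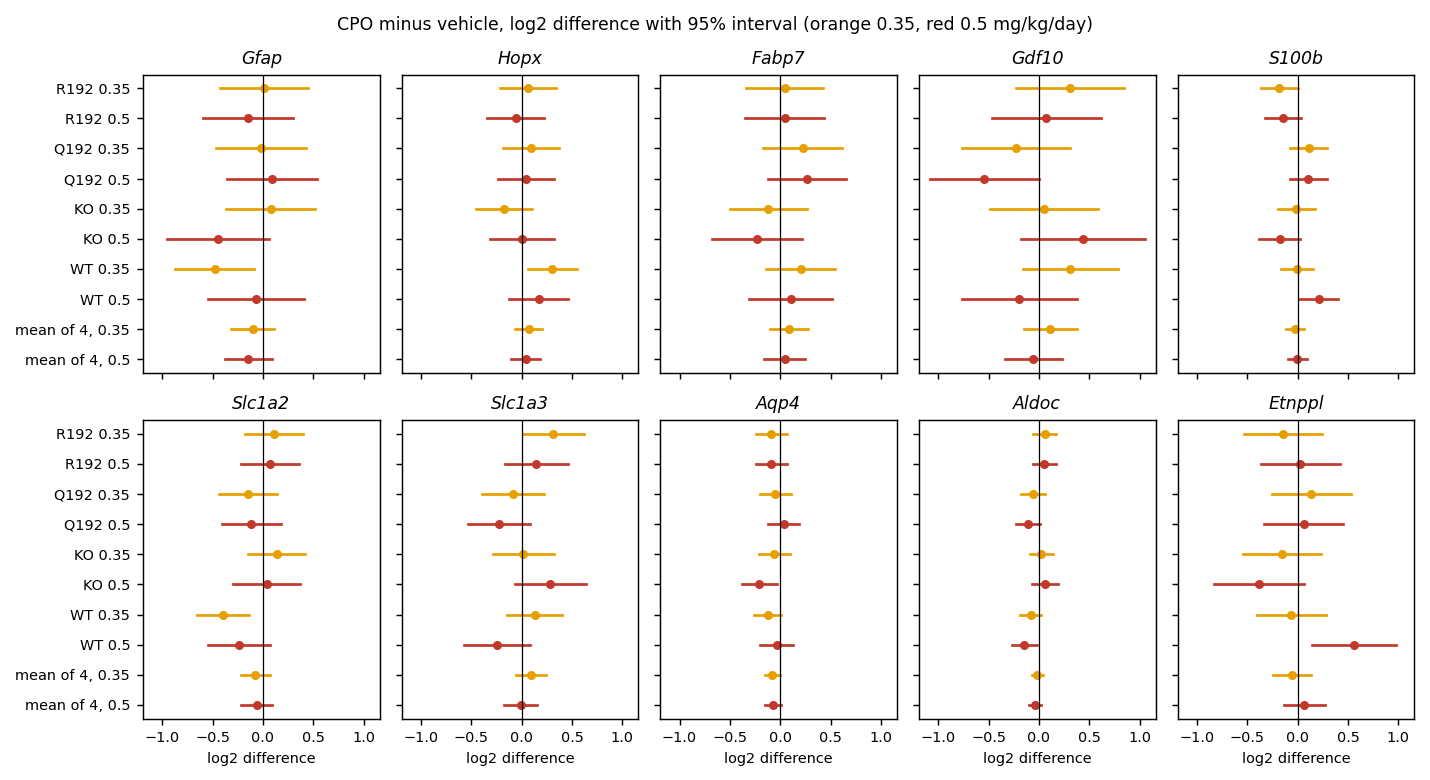
Log2 difference of CPO minus vehicle (x axis) with its 95% interval for each gene, by genotype and dose (y axis, orange 0.35 and red 0.5 mg/kg/day) and on the mean of the 4 genotypes. None of the 10 genes was called at an adjusted p under 0.05 in any of these 10 comparisons.

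The mean over the 4 genotypes gives the narrowest limits on a CPO effect. The differences of the 10 genes lay between -0.10 and +0.11 at 0.35, with 95% bounds from -0.32 to +0.37. At 0.5 they lay between -0.14 and +0.07, with bounds from -0.38 to +0.27. Aqp4 at 0.35 was the only member with an unadjusted p under 0.05 (-0.08, SE 0.0369, adjusted p = 1.00). Gfap, whose rise marks reactive astrocytes, was -0.10 (95% interval -0.32 to +0.11) at 0.35 and -0.14 (-0.38 to +0.09) at 0.5.

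The second question was whether the genotypes differed, on the mean of the 3 treatments. Aqp4 and S100b were the members called, both higher in R192 than in arrays labelled KO. Of all genes 5.61% were called in that comparison, and 2 of 10 members were. In the other pairs limma called 0 members, with 0 to 2 members at an unadjusted p under 0.05 in each, and with 0.87% of genes called for R192 against WT, 0.0736% for R192 against Q192, 0.401% for Q192 against KO, 0.455% for Q192 against WT and 0.375% for KO against WT. The differences of the 10 genes in these pairs ran from -0.28 to +0.16 for R192 against WT, from -0.27 to +0.23 for R192 against Q192, from -0.12 to +0.18 for Q192 against KO, from -0.19 to +0.11 for Q192 against WT and from -0.15 to +0.11 for KO against WT. Leaving out 1 array moved the count of all genes between 73 (WT 0.5 replicate 3) and 250 (WT vehicle replicate 4) for R192 against WT, and between 6 (R192 vehicle replicate 2) and 17 (KO 0.35 replicate 5) for R192 against Q192. The joint test of any genotype difference called 2.3% of genes, and again Aqp4 (adjusted p = 0.0118) and S100b (adjusted p = 0.0478). Its count of all genes, 344, was 203 without R192 vehicle replicate 2, 226 without KO 0.5 replicate 3, 517 without KO vehicle replicate 1, 531 without WT 0.35 replicate 5, 586 without WT vehicle replicate 4 and 999 without KO 0.35 replicate 5. Leaving out 1 array ended the S100b call of the joint test in 35 of 55 cases (adjusted p up to 0.217), and that of Aqp4 in the case of R192 vehicle replicate 2 (adjusted p = 0.0512).

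Aqp4 in R192 arrays had a lowest level of 12.08, a median of 12.22 and a highest of 12.38, against 11.85, 12.09 and 12.22 in arrays labelled KO. All 14 R192 arrays lay above the mean of the KO arrays, though the ranges overlapped. The means over arrays were 12.22 ± 0.09 (SD, n = 14) in R192 and 12.05 ± 0.11 (n = 12) in KO. The fitted difference, which weights the 3 treatments equally and takes out the array date, was +0.18 (SE 0.0446, adjusted p = 0.0124). Against Q192 (12.03 ± 0.14, n = 14) R192 differed by +0.19 (adjusted p = 0.0652), and against WT (12.06 ± 0.15, n = 15) by +0.16 (adjusted p = 0.0627). Neither of these passed, although all 14 R192 arrays again lay above both means. Leaving out 1 array carried R192 against Q192 past the threshold in 9 of 55 cases and R192 against WT in 7, while R192 against KO passed in all 55. Without the arrays of high Xist, Aqp4 in R192 differed by +0.18 from KO (adjusted p = 0.00826), by +0.19 from Q192 (adjusted p = 0.0456) and by +0.13 from WT (adjusted p = 0.2235). Without KO 0.35 replicate 5 these were +0.19 (adjusted p = 0.00325), +0.19 (adjusted p = 0.0332) and +0.16 (adjusted p = 0.0381).

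S100b in R192 arrays had a lowest of 11.50, a median of 11.76 and a highest of 11.93, against 11.28, 11.55 and 11.78 in arrays labelled KO. The ranges overlapped, and 12 of 14 R192 arrays lay above the mean of the KO arrays. The means over arrays were 11.74 ± 0.15 (n = 14) in R192 and 11.53 ± 0.14 (n = 12) in KO, with a fitted difference of +0.23 (SE 0.0531, adjusted p = 0.00916). Q192 arrays averaged 11.69 ± 0.10 (n = 14), with a fitted difference of +0.17 against KO (adjusted p = 0.243) and did not pass. The call of R192 against KO held in all 55 cases of leaving out 1 array, and without KO 0.35 replicate 5 the difference was +0.25 (adjusted p = 0.00112). Removing the 3 high-Xist arrays gave +0.23 (adjusted p = 0.00655).

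**Figure D3:**
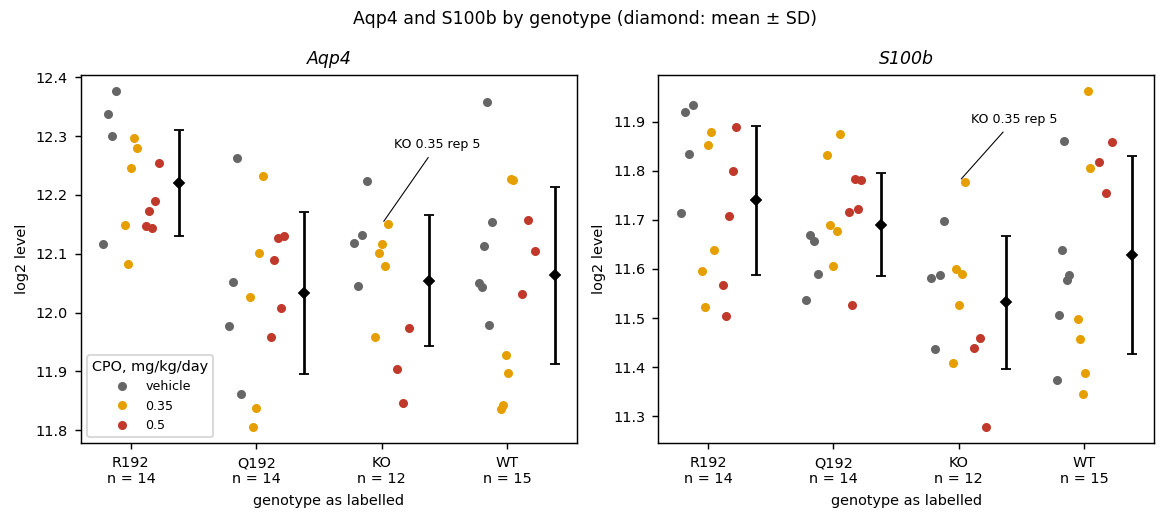
Log2 level of Aqp4 and S100b (y axes) by genotype as labelled (x axis), each point 1 array coloured by treatment, diamonds and bars mean ± SD. All 14 R192 arrays have Aqp4 at 12.08 or above, while KO 0.35 replicate 5 has the highest S100b among arrays labelled KO, 11.78.

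Within 1 array date neither gene kept its call throughout. On date 2 the arrays labelled KO held 1 array at 0.5. On date 1 alone Aqp4 differed by +0.16 (adjusted p = 0.204) and S100b by +0.14 (adjusted p = 0.373), and on date 2 alone Aqp4 by +0.19 (adjusted p = 0.194) and S100b by +0.34 (adjusted p = 0.0479). Vehicle arrays alone gave +0.15 for Aqp4 (adjusted p = 0.780) and +0.27 for S100b (adjusted p = 0.708). Without KO 0.35 replicate 5, 3 more members passed, namely Gdf10 (-0.50, adjusted p = 0.0160), Slc1a3 (-0.27, adjusted p = 0.0163) and Aldoc (-0.10, adjusted p = 0.0207). Then 5 of 10 members and 2314 of all genes were called, against 839 with that array. Over all cases of leaving out 1 array, 365 to 2314 genes were called. With every array included, Gdf10 was -0.39 (adjusted p = 0.129, and 0.0486 without WT vehicle replicate 4), Slc1a3 -0.19 (adjusted p = 0.191) and Aldoc -0.07 (adjusted p = 0.210). Gfap (+0.26), Fabp7 (+0.19), Etnppl (+0.18), Hopx (+0.05) and Slc1a2 (-0.01) did not pass between R192 and KO either, at adjusted p from 0.221 to 0.975.

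Markers of some other cell types leaned to 1 side between the same genotypes, with list means that overlapped. Markers of a list vary together, so their directions are not independent. Of 24 granule neuron markers, 0 were higher and 24 lower in R192 than in arrays labelled KO, 1 of them called (median -0.17), and their mean level ran from 9.87 to 10.35 in R192 and from 10.01 to 10.72 in KO arrays. Of 21 Purkinje cell markers 17 were lower, 3 called (median -0.20), with mean levels from 9.32 to 9.79 in R192 and from 9.38 to 10.09 in KO arrays. Of 21 microglia markers 20 were higher, 7 called (median +0.17), with mean levels from 8.01 to 8.50 in R192 and from 7.70 to 8.10 in KO arrays. Over all genes the median was +0.01 and 5.61% were called. The list mean in R192 and KO arrays was 10.64 and 10.62 for oligodendrocytes, and 8.48 and 8.46 for endothelial and mural cells. It was 8.81 and 8.91 for interneurons, and 7.91 and 7.79 for brainstem neurons. With the granule neuron mean as a covariate, an alternative chosen after seeing the data, Aqp4 differed by +0.15 (adjusted p = 0.0603) and S100b by +0.18 (adjusted p = 0.0449). The part of the microglia and Purkinje markers was not tested.

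Other astrocyte genes went both ways between R192 and arrays labelled KO. Of 49 further astroglial genes 22 were higher and 27 lower (median -0.03), 3 called in each direction. Slc39a12, a zinc transporter gene, rose by 0.35 on the log2 scale (adjusted p = 0.00800), Cldn10, a claudin gene, by 0.24 (adjusted p = 0.0156) and Slco1c1, a thyroid hormone transporter gene, by 0.20 (adjusted p = 0.0496). Tnc, an extracellular matrix gene, fell by 0.38 (adjusted p = 0.00454), the bicarbonate transporter gene Slc4a4 by 0.22 (adjusted p = 0.0147) and the receptor phosphatase gene Ptprz1 by 0.15 (adjusted p = 0.0148).

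Of 25 genes of Bergmann and radial glia, 9 were higher and 16 lower (median -0.05). The 3 called were Tnc, Ptprz1 and Dner, a Notch ligand that Purkinje cells display to Bergmann glia (-0.48, adjusted p = 0.0106). None of 20 reactive astrocyte genes was called (median -0.02). In the glutamate and glutamine cycle 14 of 17 were lower (median -0.12), and 3 were called: Slc1a6, the Purkinje cell glutamate transporter (-0.50), Slc25a22, a mitochondrial glutamate carrier (-0.36), and Got1, an aminotransferase (-0.29). Of 19 genes of water, potassium and endfeet 13 were lower (median -0.02), with Slc4a4 called.

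Among 17 tested paralogs of the members, 5 were called. The S100 genes S100a16 (+0.28), S100a1 (+0.24) and S100a13 (+0.18) and the fatty acid binding protein gene Fabp5 (+0.32) rose with S100b in R192, and Slc1a6 (-0.50) fell. When each array was centred on its median, the split of all called genes moved to 319 higher and 636 lower, against 397 higher and 442 lower without it, and Aqp4 (+0.17) and S100b (+0.22) were still called higher.

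The third question was whether the CPO effect depended on genotype. Of the 12 differences of effects, 1 held a member called. Etnppl at 0.5 lay on opposite sides of vehicle, with a log2 difference of -0.38 in arrays labelled KO and +0.56 in WT, neither called for itself. The effect in KO minus that in WT was -0.94 (SE 0.304, 95% interval -1.56 to -0.33, adjusted p = 0.0446). In that comparison 9.2% of all genes were called and 1 of 10 members.

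Etnppl in arrays labelled KO measured 9.72, 9.71 and 9.40 at 0.5 against 9.96, 9.79, 9.82 and 10.35 in vehicle. All 3 arrays at 0.5 lay below all 4 of vehicle, the reverse of the pattern in WT. Here too the share of all genes without overlap was not counted. The call rested on few arrays, and the 3 at 0.5 carried 2 description numbers in KO and 2 in WT. It was lost on leaving out KO 0.5 replicate 1 or 3, KO vehicle replicate 1 or 4, WT 0.5 replicate 2 or 3, or WT vehicle replicate 1, 5 or 6, with values from -1.08 to -0.79 and adjusted p from 0.0526 to 0.176. With the high-Xist arrays removed it was -0.82 (adjusted p = 0.0869) and 0 genes of all were called in limma (4458 at an unadjusted p under 0.05), against 1482 when KO 0.35 replicate 5 was removed as well. With array quality weights it was -0.64 (adjusted p = 0.107), and S100b passed instead (-0.35, adjusted p = 0.0434). Leaving out single arrays moved the count of all genes between 0 and 2979. Date 1 alone gave -0.55 with 1 WT array at 0.5, and date 2 alone -1.41 with 1 array labelled KO at 0.5.

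Next to Etnppl in the same comparison stood S100b (-0.39, adjusted p = 0.0650, passing without KO vehicle replicate 2, WT 0.35 replicate 5 or WT vehicle replicate 4), Aldoc (+0.21, adjusted p = 0.107) and Slc1a3 (+0.53, adjusted p = 0.125), which did not pass. Glutamate and glutamine cycle genes were higher in 16 of 17 (median +0.53), and 5 were called: Slc25a22 (+0.87), Pcx, pyruvate carboxylase (+0.77), Slc38a3, the glutamine exporter of astrocytes (+0.77), the aminotransferase gene Got2 (+0.74) and Got1 (+0.71). Of 24 granule neuron markers 22 had a higher value, at a median of +0.31, against +0.05 over all genes. With the granule neuron mean as a covariate, chosen after seeing the data, Etnppl gave -0.79 (adjusted p = 0.0696). In that limma fit 0 of all genes were called, with 4742 at an unadjusted p under 0.05.

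Further genes of the astroglial lists called there were Plpp3, a lipid phosphatase gene (+1.06), Lcat, a cholesterol-esterifying enzyme gene (+0.72), Dner (+1.13), which the Purkinje cell list also holds, the transcription factor gene Stat3 (+0.54), the chloride channel gene Clcn2 (+0.35) and Dmd, dystrophin (-0.65). Of the paralogs, Aldoa (+0.69) and S100a1 (-0.51) were called. With arrays centred on their medians, the split of called genes in this comparison was 556 higher and 696 lower, against 841 higher and 534 lower without centring. The other 11 differences of effects held 0 members called, with 0.0201% of genes called for 0.5 in R192 minus WT, 0.00669% for 0.35 in KO minus WT and 0% for the other 9. The differences of the 10 genes in these 11 lay between -0.98 (Gdf10, 0.5 in Q192 minus KO) and +0.62 (0.5 in R192 minus Q192). At an unadjusted p under 0.05 limma counted 0 to 4 members in each, and 2.31% to 28.3% of all genes. The 4 members and the 28.3% both belonged to 0.5 in Q192 minus KO, where the count of all genes called was 779 without KO vehicle replicate 3, 905 without KO 0.35 replicate 5 and 1652 without KO vehicle replicate 2. For 0.35 in KO minus WT, Slc1a2 (+0.53, adjusted p = 0.0959) and Hopx (-0.48, adjusted p = 0.107) did not pass. Slc1a2 passed without KO 0.35 replicate 5 (+0.63, adjusted p = 0.0239, with 1639 of all genes called higher and 841 lower), KO vehicle replicate 2 (+0.60, adjusted p = 0.0476) or WT 0.35 replicate 4 (+0.62, adjusted p = 0.0298), and Hopx without the last of these (-0.58, adjusted p = 0.0312). With the high-Xist arrays removed they were +0.37 (adjusted p = 0.390) and -0.38 (adjusted p = 0.395). The count of all genes called there was 757 without WT vehicle replicate 1, 1406 without KO vehicle replicate 2 and 1523 without WT 0.35 replicate 4. The joint test of any genotype by CPO difference called 0% of genes and 0 members, with 2669 genes at an unadjusted p under 0.05 and S100b the member nearest (adjusted p = 0.262).

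The members sorted into sets by how they deviated together over the arrays. Of 45 pairs, 11 were positively and 11 negatively correlated at an adjusted permutation p under 0.05 (two-sided, 100000 resamples, smallest possible p = 1e-05). Arrays that share a description number are not independent, so these p-values are too small. Gdf10 and Slc1a3 had r = 0.87 (rho = 0.75, adjusted p = 7.5e-05), with 0.88 and 0.85 within dates 1 and 2 and 0.81 without the 2 extreme arrays. Hopx joined them with r = 0.61 for Gdf10 and 0.49 for Slc1a3, and Aldoc with 0.53 and 0.61.

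**Figure D4:**
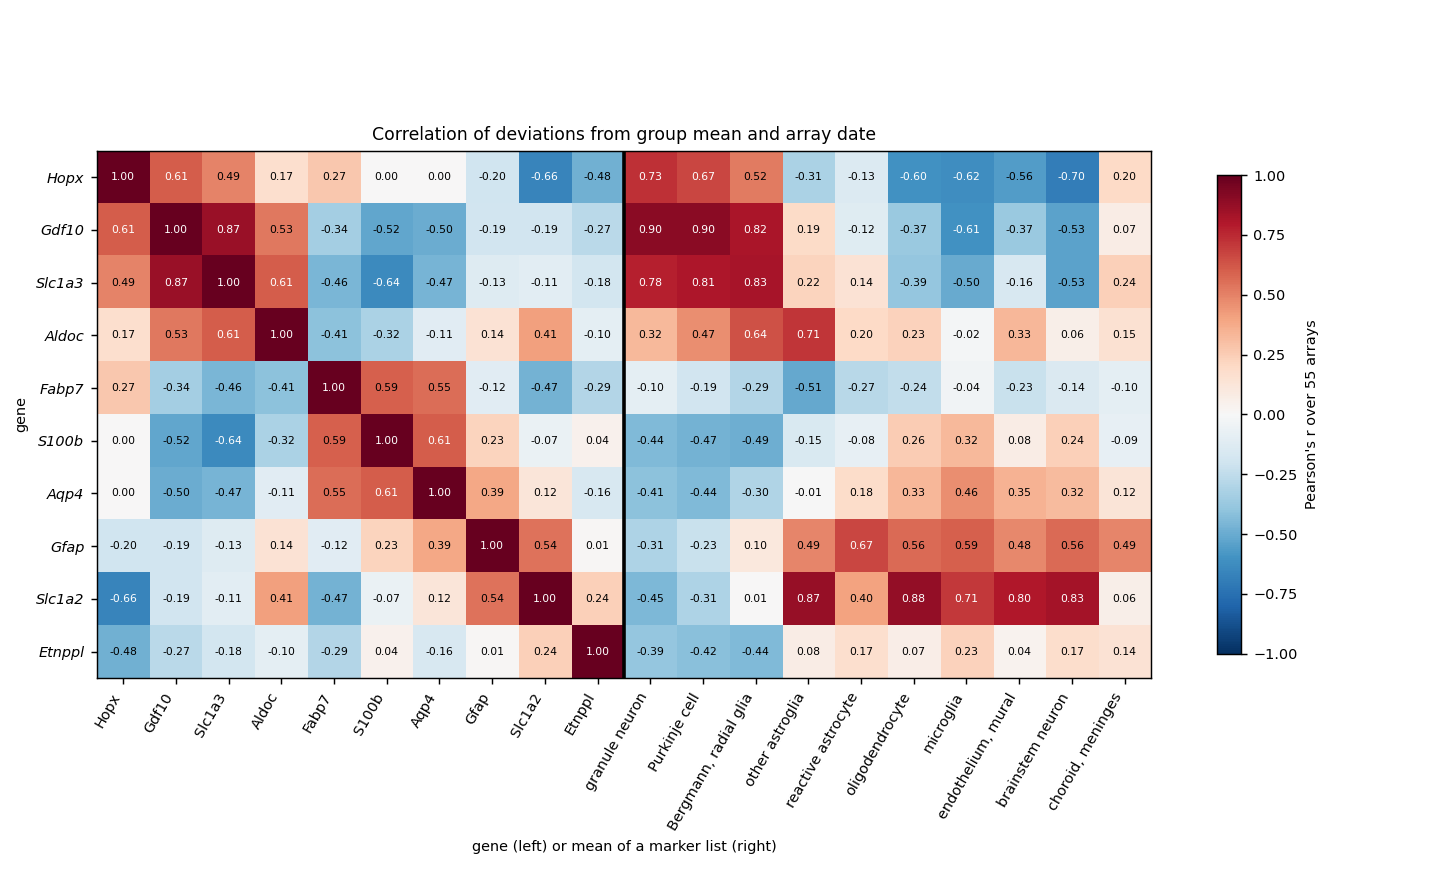
Pearson's r over 55 arrays between the deviations of each of the 10 genes (y axis) and those of each other gene, left of the black line, or of the mean of a marker list, right of it. Gdf10 and Slc1a3 (r = 0.87) run with granule neuron and Purkinje cell markers, Slc1a2 with oligodendrocyte markers (r = 0.88), and S100b against Slc1a3 (r = -0.64).

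S100b and Aqp4 had r = 0.61 (rho = 0.55, adjusted p = 7.5e-05; 0.53 and 0.67 within dates, 0.59 without the 2 extreme arrays). Fabp7 went with both, at r = 0.59 for S100b and 0.55 for Aqp4. S100b and Slc1a3 were opposed, with r = -0.64 (rho = -0.55; -0.60 and -0.68 within dates, -0.54 without 2 arrays) and Gdf10 had r = -0.52 with S100b and -0.50 with Aqp4. Hopx and Aldoc were not opposed to these genes throughout. Hopx had r = 0.0045 with S100b, 0.0043 with Aqp4 and 0.27 with Fabp7, and Aldoc had -0.315 with S100b, -0.41 with Fabp7 and -0.11 with Aqp4. Gfap and Slc1a2 went together at r = 0.54 (rho = 0.44; 0.44 and 0.66 within dates, 0.43 without 2 arrays). Slc1a2 and Hopx were opposed at r = -0.66 (rho = -0.66). The glutamate transporter genes Slc1a2 and Slc1a3 had r = -0.11 (adjusted p = 0.49).

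Several members ran with the markers of other cells. Of 140 relations between a member and the mean of a list, 48 positive and 31 negative passed. Gdf10 followed the 24 granule neuron markers at r = 0.90 (rho = 0.88; 0.87 and 0.95 within dates, 0.83 without 2 arrays) and the Purkinje cell markers at r = 0.90. Slc1a3 followed them at 0.78 and 0.81, and Hopx at 0.73 and 0.67. Gdf10 and Slc1a3 went with the other genes of Bergmann and radial glia at 0.82 and 0.83.

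Slc1a2 followed the 25 oligodendrocyte markers at r = 0.88 (rho = 0.80; 0.88 and 0.87 within dates, 0.82 without 2 arrays). It went with the other astroglial genes at 0.87 and with the brainstem neurons at 0.83, and against the granule neuron markers at -0.45. Gfap ran with the reactive astrocyte list at 0.67, with microglia at 0.59 and with brainstem neurons at 0.56. Aldoc went with the other astroglial genes at 0.71, and S100b and Aqp4 ran against the granule neuron markers at -0.44 and -0.41 and with the microglia markers at 0.32 and 0.46. Fabp7 had no positive relation with a list that passed, and ran against the other astroglial genes at -0.51, the glutamate and glutamine cycle at -0.57, the endfoot genes at -0.52 and the interneuron markers at -0.51.

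**Figure D5:**
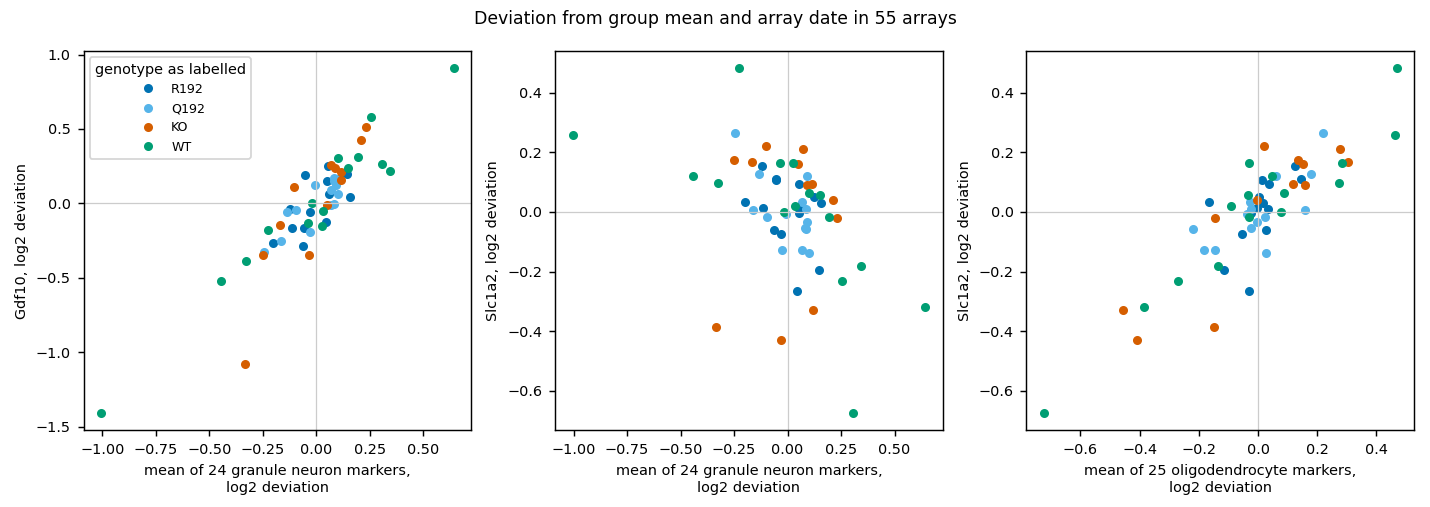
Log2 deviation of Gdf10 and Slc1a2 (y axes) against the mean log2 deviation of granule neuron or oligodendrocyte markers (x axes) in 55 arrays, coloured by genotype as labelled. Gdf10 rises with the granule neuron markers (r = 0.90), Slc1a2 falls with them (r = -0.45) and rises with the oligodendrocyte markers (r = 0.88).

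Over all 14949 genes, the 3 with the deviations most like those of each member were taken, over the same 55 arrays. For Gdf10 they were Zic2 (r = 0.94), Cadm3 (0.93) and Sbk1 (0.92), and for Slc1a3 they were Sf3b3 (0.92), Slc2a3 (0.90) and Aplp2 (0.89). Slc1a2 was most like Slc6a11, a GABA transporter gene (0.95), Ncan, a proteoglycan gene (0.94), and Arnt2 (0.94). Aldoc was most like Mlc1 (0.85), Sec61a1 (0.84) and Gpr37l1 (0.83), of which Mlc1 and Gpr37l1 are astrocyte genes. Hopx was most like 9130401M01Rik (0.85), Arhgap10 (0.84) and Pip5k1b (0.84).

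The remaining members had less close neighbours. Aqp4 was most like S100a10 (0.77), Tlr3 (0.74) and Hus1 (0.74), and S100b most like Timm8a1, Chchd3 and Serpinb1a (0.81 each). Fabp7 was most like Mkks (0.83), Polb (0.82) and Proca1 (0.80). Etnppl was most like Phyhd1 (0.77), Sult1a1 (0.77) and Gjb6, a connexin gene of astrocytes (0.76). Gfap was most like Hspb8, a small heat shock protein gene (0.75), Aebp1 (0.74) and Car14 (0.73). Of the 30 genes so named, none was itself a member.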

How the data were processed

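The authors deposited 1 table of log2 expression values, made with RMA in Affymetrix Expression Console 1.1 per the submitters' processing notes. The notes name no log base, and log2 was taken from the range of 1.15 to 14.80. RMA brings all arrays to 1 distribution, so differences are relative to the other genes; array medians were 7.37 to 7.54. Of 35557 probe sets, 21789 had 1 gene symbol, 1621 several and 12147 none. The probe set with the highest mean stood for each of 19938 genes. Genes above the 25th percentile of mean level, without Xist and Y-linked genes, gave 14949 tested.

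Limma 3.58.1 (R 4.3.3) fitted group means and array date (2 dates) over all 55 arrays, with the description number as a correlated block (0.131), a variance trend and 42 residual degrees of freedom. Of the 55 arrays, 36 shared their description number with at least 1 other array. Intervals used 47.7 moderated degrees of freedom. Adjustment followed Benjamini and Hochberg, over all genes of 1 comparison at a time. Correlations were computed in Python 3.11.15 on the residuals of group and date. On simulated data with 14949 genes, for WT at 0.35 against vehicle, each shift was given to 50 genes. Values were drawn independently for each gene and array, with no date effect and no correlation between arrays or between genes. The shares found may therefore not hold for the deposited arrays. Shifts of 0.3, 0.5, 1 and 2 (log2) were found in 48%, 92%, 100% and 100% of the genes given them. Of the genes without a shift, 2 were called. The share that would be found among the members was not tested. Their residual SD ran from 0.080 to 0.40, against a median of 0.130 over the genes tested. In the deposited arrays, Gfap at -0.48 and Slc1a2 at -0.40 were not called in this comparison. A search over 104 pairs within groups found no repeated array (smallest root mean square difference 0.240).

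The members, lists and alternatives were chosen with earlier results of these data known. The naming rule took all members in every comparison; those without a value of their own in the text are covered by the range of the 10. Up to 6 genes per comparison that passed, those with the smallest adjusted p, were named from the astroglial lists, with all paralogs that passed and the 3 genes most like each member. Further genes of those lists that passed are named as well, chosen after their values were seen. Alternatives changed the date, block, filter, probe set, centring, array weights, covariate, samples and variance model.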

Additional observations from a re-analysis of the deposited data

Results flagged for a closer look

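In 3 of 100 sets of values of a member in a group of 4 to 10 arrays, 1 array stood far from the others by Dixon's test, where chance gives about 1 in 20. Hopx was 8.52 in R192 0.35 replicate 2, against 8.79 to 8.90 in the other 4 arrays. S100b was 11.53 in Q192 0.5 replicate 2, against 11.72 to 11.78 in the others. Slc1a3 was 10.99 in KO 0.35 replicate 5, against 11.69 to 11.88 in the others. That last array shares its description number with R192 0.35 replicates 3 and 4.

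The effect of 0.5 mg/kg/day on Etnppl was called different between arrays labelled KO and WT, at -0.94 for KO minus WT (limma adjusted p = 0.0446). All 3 treated arrays lay below every vehicle array in KO and above every vehicle array in WT. The share of all genes that separate in this way was not counted. Of all genes 9.2% were called in that comparison, between 0 and 2979 genes on leaving out 1 array. The Etnppl call held in 46 of 55 such cases, and was lost without the arrays of high Xist (limma adjusted p = 0.0869). Either date alone left 1 array in 1 of the groups, with -0.55 on date 1 and -1.41 on date 2.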

How the results depend on the processing

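Counts are of members called, with the value as reported in brackets. Array quality weights gave 3 in WT at 0.5 (0), 3 for R192 against WT (0), 1 for Q192 against KO (0), 6 for R192 against KO (2), 1 for R192 against Q192 (0), 5 in the joint genotype test (2) and 2 for 0.5 in R192 minus WT (0). They called 36.3% of all genes for R192 against KO and 28.8% in the joint test, against 5.61% and 2.3% as reported. For the other counts in this paragraph the share of all genes under the same setting is not set beside them. A higher count of members is therefore not a result about the members apart from all genes. Vehicle arrays alone stands for the vehicle groups compared within the fit to all 55 arrays. For R192 against KO the count was 0 on date 1, 1 on date 2, 0 in vehicle arrays alone, 5 without the arrays of high Xist and KO 0.35 replicate 5, and 1 with granule neuron markers as a covariate, the last 2 chosen after seeing the data. For R192 against Q192 it was 1 without the description number, with brainstem markers as a covariate and without the arrays of high Xist, also with KO 0.35 replicate 5 left out, and 2 in the groups compared alone; for R192 against WT it was 1 without the description number. The joint genotype count was 0 on either date alone and 1 without the array date, with no filter, with each probe set for itself, with arrays centred, without a trend and with either covariate. For 0.5 in KO minus WT (1) the count was 2 with the filter on the median level, with arrays centred and with brainstem markers as a covariate, S100b joining Etnppl each time. With array quality weights it was 1, but of S100b and not Etnppl. It was 0 with no filter, with each probe set for itself, in the groups compared alone and with the granule neuron covariate. The count was also 0 without the arrays of high Xist, with or without KO 0.35 replicate 5. Either date alone left 1 array in 1 group of this comparison, and no count is given for it. Q192 at 0.5 gave 1 (Gdf10) in the groups compared alone, and WT at 0.35 gave 2 (Hopx and Slc1a2) on date 2. Leaving out 1 array in turn gave 0 to 2 for WT at 0.35, for both KO minus WT effects and for the joint genotype test, 0 to 1 for R192 against WT and against Q192, 2 to 5 for R192 against KO, and 0 in the other comparisons. Same-numbered arrays correlated at a mean of -0.0105, with every correlation over 0.1 in 4 of 66 group pairs, so the numbers do not pair arrays; with a replicate block the count was 1 in the joint genotype test and 3 for 0.5 in KO minus WT, and the other counts were as reported. On date 1 alone the correlation of Aqp4 with oligodendrocyte markers was -0.0104 (0.33 over both dates) and with endothelial and mural markers -0.0791 (0.35). The causes were not tested. Array number limits precision: within a genotype the 95% bounds of the members reached 1.08 below and 1.05 above vehicle.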
